A study of Homo sapiens with 6 samples.

Results

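Forskolin activates adenylyl cyclase and so raises cyclic AMP, the signal that drives fluid secretion in polycystic kidney epithelium. The comparison described here sets kidney organoids treated with forskolin against untreated organoids in static culture, each pair sharing its genotype. Its members are 4 of the 6 arrays of the series, chosen by their labelled culture: 2 forskolin arrays and 2 static arrays. The remaining 2 arrays, of organoids under flow, are shown as further untreated levels and help to estimate the spread.

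The source of all organoids was H9, an established line of human embryonic stem cells, and RNA was taken at day 35. Each culture was run once in PKHD1-/- organoids (clone C51) and once in PKHD1+/- organoids (clone C9). Loss of PKHD1 causes autosomal recessive polycystic kidney disease, and both genotypes carry at least 1 mutant copy. The forskolin organoids received 20 µM of the compound from day 14 onwards. The static organoids lay on a gelatin and fibrin matrix with no flow, and the flow organoids lay on the same matrix under medium moving at 4.27 ml/min from day 15. The labels do not place the forskolin organoids on the matrix. The scan stamps also put both forskolin arrays in a different session from the 4 matrix arrays. Treatment, matrix and scan session therefore cannot be told apart. There is 1 clone per genotype and 1 array per genotype and culture, so no group has replicates.

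The forskolin arrays were the dimmest of the series, with a median spot 16.5 and 21.2 intensity units above the blank spots, against 33.6 and 37.2 on the static arrays. Across genes, the forskolin and static arrays of 1 genotype correlated at 0.935 in PKHD1-/- and 0.941 in PKHD1+/-. The 2 forskolin arrays correlated at 0.978 with each other, and the 2 static arrays at 0.983. The kidney markers WT1 and PAX2 were present both with forskolin and in static culture. WT1, a podocyte and nephron gene, read 8.79 and 8.87 with forskolin and 8.39 and 9.12 in static culture. PAX2, a transcription factor of nephron epithelium, read 7.15 and 7.21 with forskolin and 7.40 and 7.54 in static culture. These and all later levels are normalized log2 intensities after an offset of 50, with PKHD1-/- given before PKHD1+/-. The offset compresses the differences of dim genes. In bulk RNA, fewer cells of a type and less RNA per cell cannot be told apart.

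The largest differences were higher levels of contractile genes of skeletal muscle in forskolin organoids of both genotypes, led by ACTA1, the actin of skeletal muscle. The secreted neuropeptide precursor VGF and the growth regulator DLK1 rose with them. Genes that fell included MMP7, a matrix protease, and both subunits of soluble guanylate cyclase, GUCY1A1 and GUCY1B1. Limma called 184 of 16364 genes at a Benjamini-Hochberg adjusted p under 0.05. Of these, 125 were higher with forskolin, 0.764% of the genes tested, and 59 were lower, 0.361%. Before adjustment, 1938 genes were higher and 1865 lower at p under 0.05. Scaling each array to its 75th percentile instead gave 5894 higher and 862 lower calls, and the authors' value table gave 299 and 358. A number after ± is limma's moderated standard error, drawn from the residual spread of the 6 arrays together.

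The calls rest on few arrays. The adjusted p of called genes lay between 0.0242 and 0.0495, and leaving out any 1 of the 4 arrays gave 0 calls by limma, with lowest adjusted p-values of 0.223 to 0.293 and 2070 to 2555 genes at p under 0.05 before adjustment. All 184 genes kept their direction in every setting that tested them. This adds little, as all 184 had the same direction in both pairs and every setting reuses these arrays. The count rests on 2 residual degrees of freedom, and the p-values measure only what culture and genotype leave over between these arrays.

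Across all genes tested, 37% were higher in both pairs and 35.1% were lower in both pairs, so 72.0% had the same direction in both genotypes. The changes of the 2 pairs correlated at 0.715 across 16364 genes, which are not independent replicates, and the pairs share the confounded scan session and matrix. Both forskolin arrays lay at least 1 log2 unit above all 4 matrix arrays for 90 genes (0.55%) and at least 1 below them for 70 genes (0.428%). Among the called genes, 67 were of the first kind and 21 of the second.

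**Figure D1:**
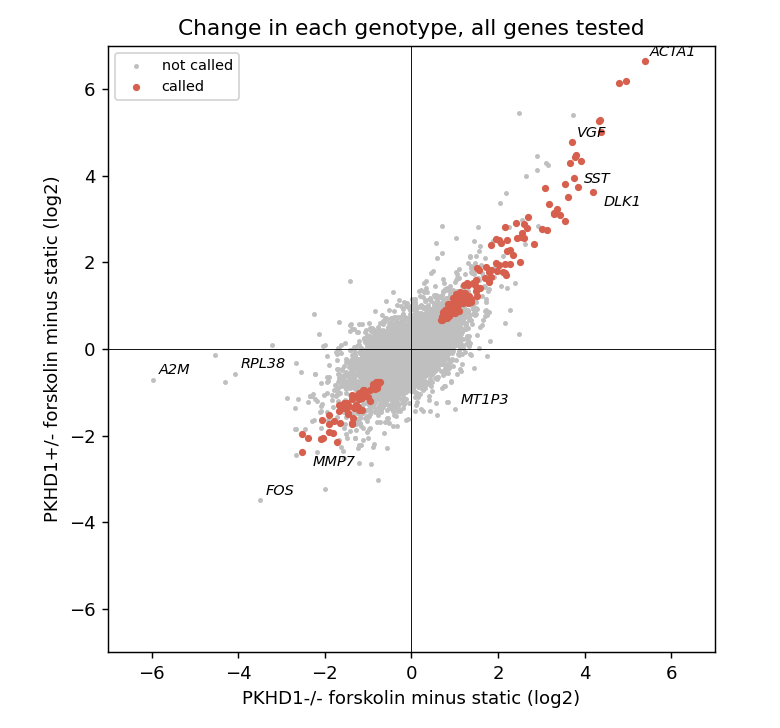
Forskolin minus static difference (log2) of each gene tested, with the PKHD1-/- pair on the horizontal axis and the PKHD1+/- pair on the vertical axis. The 184 called genes lie near the diagonal, from MMP7 at the lower left to ACTA1 at the upper right. The fit counts a difference between the pairs as spread, so calls favour genes near the diagonal. A2M and RPL38 lie far to the left and near 0 on the vertical axis.

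Cyclic AMP is made by adenylyl cyclases and broken down by phosphodiesterases, and it releases the catalytic subunits of protein kinase A from their regulatory subunits. The kinase phosphorylates CREB, a transcription factor that binds a palindromic element in promoters, and it opens CFTR, the chloride channel of secreting epithelia. In the collecting duct, cyclic AMP is known as the signal of vasopressin. CREM encodes among others a repressor made from an internal CREB-driven promoter, which is known to close the loop on prolonged stimulation.

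No member of the machinery itself was called. Over all genes tested, 0.764% were called higher and 0.361% lower, so 0 calls does not set a list of this size apart. Of 38 members tested in the list of cyclic AMP synthesis, breakdown and protein kinase A, 0 were called by limma in either direction, 15 were higher in both pairs and 13 lower in both. Their median change was 0.01 on the log2 scale, against 0.00 over all genes tested. The widest difference belonged to PRKAR2B, a regulatory subunit of the kinase, which read 6.11 and 6.35 with forskolin and 7.02 and 7.57 in static culture. Its forskolin and static levels do not overlap, but the difference of -1.06 ± 0.18 did not pass (limma moderated SE, n = 2 pairs, adjusted p = 0.0923). PRKAR1A, another regulatory subunit, differed by -0.84 and PRKACB, a catalytic subunit, by -0.52. Among the cyclases, ADCY3 differed by 0.63 ± 0.16 (adjusted p = 0.151), and the phosphodiesterase PDE1A by 0.48.

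Among 37 tested targets of CREB, 0 were called, 13 were higher in both pairs and 15 lower in both, and the median change was 0.00. The shares over all genes were 0.764% called higher and 0.361% lower, with 37% higher and 35.1% lower in both pairs. The CREB target list nonetheless held very wide differences in opposite directions. SST, which encodes the hormone somatostatin and is the classic gene in which the cyclic AMP response element was described, read 11.83 and 12.09 with forskolin. In static culture SST read 7.99 and 8.38, and under flow 8.25 and 7.48. Both forskolin arrays thus stood apart from all 4 matrix arrays. The difference of 3.78 ± 0.34, about 13.8-fold, lay just outside the threshold of limma (n = 2 pairs, adjusted p = 0.0517), and the SST ratio in the authors' value table was 21.2-fold. CREM read 8.90 and 8.91 with forskolin and 7.94 and 8.14 in static culture, a difference of 0.87 ± 0.17 (adjusted p = 0.103). CGA, the common subunit of glycoprotein hormones, read 6.27 and 6.25 with forskolin. On both static arrays CGA was not well above background, at 5.69 and 5.70, which bounds the difference as at least 1.39-fold higher (adjusted p = 0.06 by limma).

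VGF, a secreted precursor of neuropeptides, is outside that list and was named as a largest change. It read 10.61 and 11.21 with forskolin, 6.90 and 6.43 in static culture, and 7.35 and 6.98 under flow. The rise of 4.24 ± 0.32 was called by limma (n = 2 pairs, adjusted p = 0.0487), and the forskolin levels did not overlap with any matrix array.

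The widest differences in the opposite direction belonged to FOS, EGR1 and SCG2. FOS, a subunit of the AP-1 transcription factor, read 6.95 and 7.29 with forskolin and 10.43 and 10.78 in static culture. Under flow it read 9.59 and 11.51, so both forskolin arrays were below every other array. Its difference of -3.49 ± 0.49 did not pass limma (n = 2 pairs, adjusted p = 0.0747), and the wide spread between the 2 flow arrays enters that error. EGR1, a zinc finger transcription factor, read 7.79 and 8.17 with forskolin and 9.88 and 10.23 in static culture, a difference of -2.08 ± 0.19 (adjusted p = 0.0537). SCG2, a secretory granule protein, read 6.24 and 6.72 with forskolin and 8.51 and 7.76 in static culture. Other members had smaller differences, among them the immediate early genes NR4A1 at 0.29, NR4A2 at 0.08 and FOSB at 0.17, and the metabolic gene PCK1 at 0.21. DUSP1, a phosphatase of MAP kinases, differed by -0.52 ± 0.18 (adjusted p = 0.221).

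**Figure D2:**
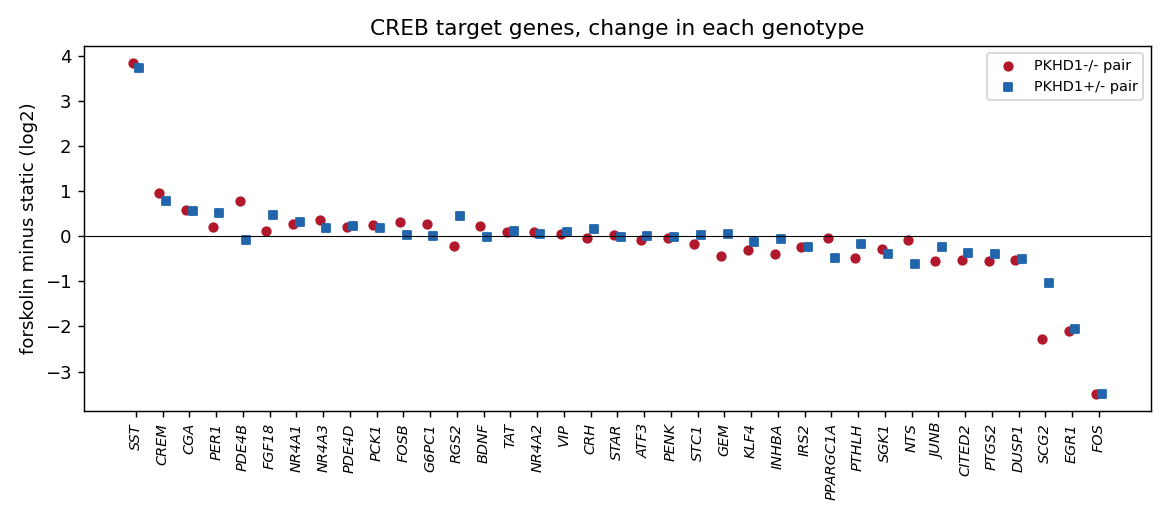
Forskolin minus static difference (log2) of the 37 tested CREB target genes, ordered by their fitted change, with the PKHD1-/- pair as circles and the PKHD1+/- pair as squares. SST stands alone at the upper end near 3.78, most members lie near 0, and SCG2, EGR1 and FOS form the lower end, with both genotypes close together except for SCG2.

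The promoters of these genes show what a CREB site looks like beside the values above. Each window is from RefSeq on GRCh38.p14 and runs from 250 bases before to 50 bases after a transcription start, written 5′ to 3′ on the strand of the gene. SST lies at chr3:187670345-187670644 (minus strand), VGF at chr7:101165520-101165819 (minus), CGA at chr6:87095057-87095356 (minus), CREM at chr10:35195600-35195899 (plus) and FOS at chr14:75278578-75278877 (plus). Capitals mark the full element TGACGTCA, except in FOS, where they mark its 5-base core TGACG. The CREM window is 1 of 7 starts in the table, of which 2 hold the full element. It is the first listed of these 2, and its element lies at position 253, where the start is position 251.
SST: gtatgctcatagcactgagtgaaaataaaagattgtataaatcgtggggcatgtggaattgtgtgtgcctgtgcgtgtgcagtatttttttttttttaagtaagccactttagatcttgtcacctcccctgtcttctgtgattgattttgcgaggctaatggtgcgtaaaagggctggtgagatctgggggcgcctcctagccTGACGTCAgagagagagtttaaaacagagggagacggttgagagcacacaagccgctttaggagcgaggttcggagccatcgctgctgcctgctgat
VGF: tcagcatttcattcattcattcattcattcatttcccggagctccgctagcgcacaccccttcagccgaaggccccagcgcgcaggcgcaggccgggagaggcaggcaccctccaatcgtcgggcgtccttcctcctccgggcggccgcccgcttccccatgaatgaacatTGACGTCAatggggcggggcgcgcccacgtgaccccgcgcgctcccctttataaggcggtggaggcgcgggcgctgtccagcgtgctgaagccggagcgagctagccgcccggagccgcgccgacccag
CGA: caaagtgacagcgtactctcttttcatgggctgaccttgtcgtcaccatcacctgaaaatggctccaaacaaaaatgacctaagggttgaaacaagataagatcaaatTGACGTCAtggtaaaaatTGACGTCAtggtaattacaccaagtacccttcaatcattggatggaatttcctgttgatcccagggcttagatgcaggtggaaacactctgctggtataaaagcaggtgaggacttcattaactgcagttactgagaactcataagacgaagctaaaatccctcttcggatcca
CREM: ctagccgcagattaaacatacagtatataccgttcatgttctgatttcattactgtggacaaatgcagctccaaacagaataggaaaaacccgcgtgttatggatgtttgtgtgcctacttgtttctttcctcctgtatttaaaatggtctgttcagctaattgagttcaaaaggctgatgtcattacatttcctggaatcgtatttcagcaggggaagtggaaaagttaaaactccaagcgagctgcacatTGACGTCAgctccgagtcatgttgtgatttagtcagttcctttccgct
FOS: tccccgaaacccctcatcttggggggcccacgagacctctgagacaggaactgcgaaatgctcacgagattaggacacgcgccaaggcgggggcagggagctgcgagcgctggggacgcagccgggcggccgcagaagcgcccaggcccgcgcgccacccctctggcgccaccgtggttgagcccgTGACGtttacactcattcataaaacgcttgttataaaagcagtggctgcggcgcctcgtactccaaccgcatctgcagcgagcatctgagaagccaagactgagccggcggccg

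The full element stands once in the SST window, at position 204, once in that of VGF, at position 172, and at positions 109 and 127 in that of CGA. FOS has only the core, at position 187. Searched on both strands, the full element occurred in at least 1 window of 427 of the 13107 tested genes with a promoter in the table (3.26%). It occurred in 4 of 28 CREB targets (14.3%), which are SST, CREM, CGA and DUSP1, and such genes were listed because they are known targets. Of 96 genes called higher with a window, 4 held it (4.17%): VGF, MYL3, KCNF1 and RPLP2. Of 51 genes called lower with a window, 0 held it. The core occurred in 36.2% of tested genes, 27.1% of those called higher and 29.4% of those called lower. A match describes letters in the window only.

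Genes of chloride and fluid secretion, the outputs through which cyclic AMP swells cysts, held no call. The shares over all genes tested were 0.764% called higher and 0.361% called lower, so a list of this size would hold few calls anyway. Of 33 members tested, 0 were called by limma, 12 were higher in both pairs and 14 lower in both, with a median of -0.03. CFTR read 6.58 and 6.52 with forskolin and 6.46 and 6.69 in static culture. Its levels overlap between the cultures, and the difference was -0.02 ± 0.12 (limma, n = 2 pairs, adjusted p = 0.944). KCNJ15, a potassium channel, read 6.80 and 6.97 with forskolin and 8.10 and 9.02 in static culture, at -1.67 ± 0.28 (adjusted p = 0.092). CA2, the carbonic anhydrase that supplies bicarbonate, differed by -1.15, and SLC12A2, the cotransporter that loads chloride into secreting cells, by -0.46. LRRC8A, a subunit of the volume-regulated anion channel, differed by 0.44 and the water channel AQP4 by 0.36. AQP4 was dim, at 5.86 and 5.89 in static culture. In the authors' value table AQP4 was 4.21-fold higher, LRRC8A 1.66-fold higher and CA2 4.35-fold lower. The vasopressin receptor AVPR2 differed by -0.17 and AQP2, the water channel it controls, by 0.15.

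Of 26 tested genes of polycystic and ciliary disease, 0 were called, with 7 higher and 11 lower in both pairs and a median of -0.04. With 0.764% of all genes tested called higher and 0.361% lower, a list of this size would hold few calls anyway. The all-gene shares in both pairs were 37% higher and 35.1% lower. PKHD1 itself read 7.33 and 7.24 with forskolin and 7.35 and 7.49 in static culture, a difference of -0.13 ± 0.08 (limma, n = 2 pairs, adjusted p = 0.437). Its 2 probes disagreed, at -0.75 and 0.48, and their positions relative to the mutations are not given in the sources used here, so these levels check neither genotype. PKD2, the cation channel polycystin-2 of dominant polycystic disease, read 6.69 and 6.30 with forskolin and 8.36 and 8.40 in static culture. Under flow PKD2 read 8.10 and 8.48, so both forskolin arrays lay below all 4 others, by a difference of -1.88 ± 0.21 that did not pass (adjusted p = 0.0604). Its partner PKD1 differed by 0.08. IFT88, a carrier of cargo within cilia, differed by -0.64.

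Skeletal and heart muscle markers were the list with the widest shift. These genes mark a lineage outside the kidney: contractile filaments, their calcium switches, and the myogenic factors that switch them on. Of 27 members tested, 11 were called higher and 0 lower, 24 were higher in both pairs, and 14 lay at least 1 above all 4 matrix arrays. Among all genes tested, the shares were 0.764% called higher, 0.361% called lower, 37% higher in both pairs and 0.55% at least 1 above all 4 matrix arrays. The median change of the muscle members was 2.70, against 0.00 over all genes. The median over the members was 9.99 and 10.30 with forskolin and 6.87 and 6.49 in static culture.

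Among the thick and thin filament genes, ACTA1 read 13.36 and 13.29 with forskolin and 7.97 and 6.64 in static culture. It rose by 6.02 ± 0.37, about 64.8-fold (limma, n = 2 pairs, adjusted p = 0.0433). In the authors' value table, which adds no offset, the ACTA1 ratio was 151-fold. MYH3, the embryonic myosin heavy chain, read 14.52 and 13.73 with forskolin and 9.72 and 7.60 in static culture, a rise of 5.46 ± 0.44. The perinatal myosin MYH8 rose by 4.82 ± 0.40 and the light chain MYL4 by 4.12 ± 0.18.

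Of the troponins, which switch contraction on with calcium, those called were TNNC2, TNNC1, TNNT1 and TNNT2. The fast troponin TNNC2 read 13.72 and 13.54 with forskolin and 8.75 and 7.36 in static culture, and the slow and cardiac troponin TNNC1 read 12.61 and 12.39 against 8.27 and 7.12. Their rises were 5.57 ± 0.36 and 4.80 ± 0.26, and those of the slow TNNT1 and cardiac TNNT2 were 4.70 ± 0.20 and 3.80 ± 0.12. The fast TNNT3 at 3.32 and the slow TNNI1 at 0.01 did not pass. ENO3, the enolase of muscle, rose by 4.14 ± 0.26, MYBPH, a myosin binding protein, by 4.13 ± 0.15, and SMPX, a small muscle protein, by 3.98 ± 0.18. The muscle creatine kinase CKM was called at 2.63 ± 0.15, but its 2 probes disagreed, at 0.28 and 4.99, so that mean is uncertain.

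The regulators behaved unequally. MYOG, the myogenic factor of differentiating fibres, read 8.79 and 8.83 with forskolin and 6.37 and 5.92 in static culture, a rise of 2.66 ± 0.14 (limma, n = 2 pairs, adjusted p = 0.0425). MYOD1, which commits cells to the lineage, read 10.32 and 10.60 with forskolin and 7.16 and 6.36 in static culture, but its difference of 3.70 ± 0.33 did not pass (adjusted p = 0.0518). The progenitor factors PAX3, PAX7 and MYF5 differed by -0.04, 0.03 and 0.06. The mature myosin MYH2 differed by 0.20 and the giant spring protein TTN by 0.31. Of the 27 muscle markers tested, 24 were above background on all 4 forskolin and static arrays. Some stayed near the floor on every array, where the offset compresses differences.

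Muscle genes also varied between the untreated cultures. Their median level under flow was 8.51 and 7.79, and in both genotypes 20 of the 27 members lay between the static and the forskolin level. ACTC1, the cardiac actin, read 14.33 and 14.88 with forskolin, 11.85 and 9.42 in static culture, and 14.08 and 13.48 under flow, and its 3.97 ± 0.80 did not pass (adjusted p = 0.109). PKHD1-/- read higher than PKHD1+/- on the static arrays for ACTA1, MYH3 and TNNC2, by more than 1 log2 unit each. The part that differences in organoid composition play in the shift was not tested.

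**Figure D3:**
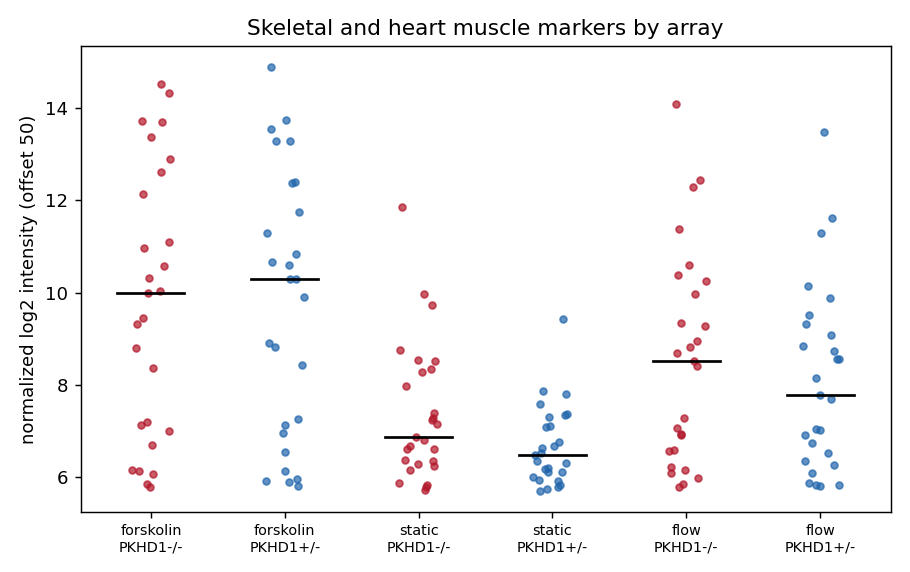
Normalized log2 intensity of the 27 tested skeletal and heart muscle markers on each of the 6 arrays, each point a gene and the black bar the median. The medians are near 10 on both forskolin arrays, below 7 on both static arrays, and 8.51 and 7.79 on the flow arrays, while some members stay near the floor on every array.

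DLK1, a membrane protein of immature mesenchyme and muscle precursors, was the remaining gene among the 12 widest rises. It read 15.11 and 14.55 with forskolin, 10.93 and 10.92 in static culture, and 12.48 and 11.37 under flow. Its rise of 3.91 ± 0.30 was the only call among 16 stromal markers tested, whose median was -0.26, with 4 higher and 8 lower in both pairs (limma, n = 2 pairs, adjusted p = 0.0487). The shares of all genes tested were 0.764% called higher, 37% higher in both pairs and 35.1% lower in both. The chaperone CRYAB, abundant in muscle and lens, rose by 2.56 ± 0.06, from the heat shock list, in which it was 1 call among 16 members with a median of 0.05.

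As reported here, genes called lower were fewer than those called higher and had smaller differences. The number depends on the processing, as the authors' value table gave 358 lower and 299 higher calls. Falls to dim levels were wider in that table. TDO2 fell 17.5-fold there against 3.52-fold here, and GASK1B 10.6-fold against 3.69-fold, while MMP7 stayed at 5.38-fold. The rise of ACTA1 was also wider there, at 151-fold. MMP7, a matrix protease of injured tubules and a known WNT target, read 9.11 and 9.29 with forskolin, 11.64 and 11.66 in static culture, and 10.82 and 11.02 under flow. It fell by 2.45 ± 0.08 on the log2 scale, or 5.46-fold (limma, n = 2 pairs, adjusted p = 0.0272), and the genotypes lay close together in each culture. TSPAN12, a membrane partner of the Frizzled receptor FZD4, fell by 2.24 ± 0.18. DKK1, a secreted WNT antagonist, read 8.43 and 8.51 with forskolin and 10.50 and 10.14 in static culture, a fall by 1.85 ± 0.13. KREMEN2, a coreceptor of DKK proteins, moved the other way, at 10.51 and 9.93 with forskolin and 7.85 and 7.13 in static culture, a rise of 2.73 ± 0.07 (adjusted p = 0.0242). Of 45 WNT ligands, receptors and antagonists tested, DKK1 and KREMEN2 were the only calls, and the median was 0.01.

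Soluble guanylate cyclase is the receptor of nitric oxide and makes cyclic GMP, the sister messenger of cyclic AMP. GUCY1A1, its alpha subunit, read 6.69 and 7.69 with forskolin, 8.77 and 9.77 in static culture, and 7.01 and 8.21 under flow. GUCY1B1, the beta subunit, read 6.27 and 6.69 with forskolin, 8.31 and 8.73 in static culture, and 8.02 and 8.11 under flow. They fell by 2.08 ± 0.08 and 2.04 ± 0.12 on the log2 scale (limma, n = 2 pairs, adjusted p = 0.0335 and 0.0425). For GUCY1A1 the PKHD1+/- forskolin array lay above the PKHD1-/- flow array, so only GUCY1B1 was below all 4 matrix arrays in both genotypes. PDE5A, the phosphodiesterase that degrades cyclic GMP, was called as well, at 6.10 and 6.39 with forskolin and 7.76 and 7.67 in static culture, a fall by 1.47 ± 0.12. PDE5A was picked out after its value was seen.

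Other called falls had varied roles. SULT1E1, the estrogen sulfotransferase, read 8.02 and 8.77 with forskolin and 10.41 and 10.82 in static culture, and fell by 2.22 ± 0.12. TDO2, the dioxygenase that opens tryptophan, fell by 1.82 ± 0.08, with 5.90 and 6.11 under forskolin, 7.80 and 7.85 in static culture, and 6.46 and 6.47 under flow. CLTC, the clathrin heavy chain of coated vesicles, fell by 1.93 ± 0.13. PCDH18, a protocadherin, GASK1B, a Golgi protein, ZNF711, a zinc finger protein, and ABHD10, a mitochondrial thioesterase, fell by 1.91, 1.88, 1.72 and 1.71. EMCN, a sialomucin of capillary endothelium, fell by 1.47 ± 0.09 and was the only call among 22 endothelial markers tested, whose median was 0.02. Under flow EMCN read 7.24 and 7.66, between its forskolin and static levels in each genotype.

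**Figure D4:**
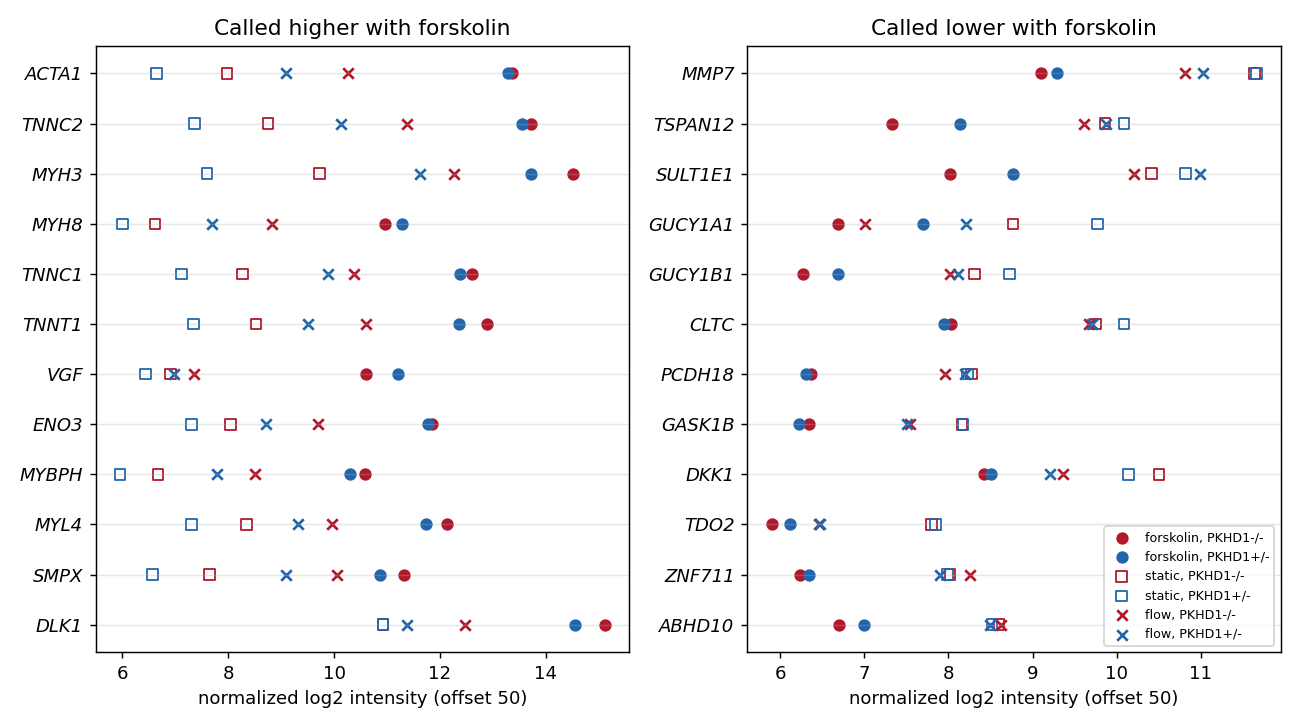
Normalized log2 intensity of the 12 genes with the widest called rise (left) and the 12 with the widest called fall (right) on each array, with forskolin as filled circles, static as open squares and flow as crosses. On the left the flow crosses of the muscle genes lie between the other cultures, while VGF under flow stays near its static level. On the right the forskolin circles lie lowest in nearly every gene.

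Among the growth factor pathways, inhibitors of SMAD signalling and BMP targets leaned down. Of 19 members tested, 12 were lower in both pairs and 1 was higher in both. Of all genes tested, 35.1% were lower in both pairs, 37% higher in both and 0.361% called lower. The median of the list was -0.20. SMAD7, which blocks TGF-beta receptors, was the 1 call: it read 6.48 and 6.71 with forskolin and 7.37 and 7.59 in static culture, and fell by 0.88 ± 0.07 (limma, n = 2 pairs, adjusted p = 0.0487). Under flow SMAD7 read 6.84 and 6.95, closer to the forskolin than to the static level. The ID genes, BMP targets that hold back helix-loop-helix factors such as MyoD, had wider differences that did not pass. ID2 read 9.34 and 10.18 with forskolin and 11.80 and 12.01 in static culture, at -2.15 ± 0.22 (adjusted p = 0.0576). ID4 read 7.56 and 8.35 with forskolin and 10.24 and 10.20 in static culture, at -2.27 ± 0.26 (adjusted p = 0.0618). ID1 and ID3 differed by -1.49 and -1.08. The secreted BMP antagonist NBL1 is not on the list. It rose by 2.58 ± 0.06, reading 10.25 and 9.95 with forskolin and 7.65 and 7.39 in static culture, and was picked out after its value was seen.

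Of 32 fibrillar matrix and TGF-beta genes tested, 17 were lower and 7 higher in both pairs, with a median of -0.25 and 0 calls by limma. For all genes tested, the shares were 35.1% lower and 37% higher in both pairs, with 0.764% called higher and 0.361% lower. Lists of the sizes in this paragraph would therefore hold few calls anyway. The matricellular protein CCN2 read 9.21 and 8.76 with forskolin, 11.88 and 11.21 in static culture, and 9.64 and 11.64 under flow, at -2.56 ± 0.79 (adjusted p = 0.187). Its relative CCN1 read 6.66 and 6.67 with forskolin and 8.74 and 8.49 in static culture, and lay below all matrix arrays, at -1.95 ± 0.39 (adjusted p = 0.109). The glycoprotein FN1 and the proteoglycan LUM differed by -1.89 ± 0.62 and -1.80 ± 0.32. Both CCN genes are also counted as immediate early genes and as YAP targets. Of 32 immediate early genes 0 were called and the median was -0.05, with JUN, the partner of FOS, at 0.89 ± 0.16 (adjusted p = 0.0985). Of 26 YAP and shear stress genes 0 were called and the median was -0.02.

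Hypoxia and glycolysis genes leaned up, with 22 of 35 members tested higher in both pairs, 7 lower in both and a median of 0.35. SLC16A3, the lactate exporter, was the only call, reading 7.49 and 7.35 with forskolin and 6.75 and 6.56 in static culture, a rise of 0.77 ± 0.06 (limma, n = 2 pairs, adjusted p = 0.0487). EGLN3, an oxygen-sensing hydroxylase, differed by 1.70 ± 0.20 (adjusted p = 0.0618), while LDHA, which makes lactate, differed by -1.40 ± 0.55. Cholesterol synthesis genes were higher in both pairs for 13 of 20 and lower for 4, with a median of 0.24. MVK, the mevalonate kinase, rose by 1.01 ± 0.06 and was the 1 call there. For both lists, the corresponding shares over all genes tested were 37% higher in both pairs, 35.1% lower in both and 0.764% called higher. With arrays scaled to their 75th percentile instead, the median of all genes moved to 0.31, and relative to it the hypoxia and cholesterol medians were 0.10 and 0.02.

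In the remaining pathway lists, each call stood nearly alone. Of 10 metallothioneins tested, MT1E alone was called, reading 8.29 and 7.99 with forskolin and 6.03 and 6.03 in static culture, a rise of 2.11 ± 0.13 (limma, n = 2 pairs, adjusted p = 0.0433). The cytokine IL17B rose by 3.25 ± 0.18, 1 call among 31 chemokines and cytokines. In the interferon list IFI6 rose by 1.36 ± 0.10 and IFI44L fell by 0.82 ± 0.07, out of 26. SDF2L1, a chaperone cofactor of the endoplasmic reticulum, rose by 0.78 ± 0.06, 1 of 31 stress response genes, and RPLP2 rose by 0.71 ± 0.06, 1 of 28 ribosomal protein genes. By limma 0 of 35 cell cycle genes, 0 of 42 respiratory chain genes and 0 of 20 retinoic acid genes were called, with medians of -0.06, 0.11 and 0.01. As 0.764% of all genes tested were called higher and 0.361% lower, lists of these sizes would hold few calls anyway.

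Nephron markers held no call, against 0.764% called higher and 0.361% called lower over all genes tested. Lists of this size would hold few calls anyway. Epithelial identity and junction genes were lower in both pairs for 21 of 27 members tested and higher for 2, with a median of -0.30, and 0 were called by limma. By comparison, 35.1% of all genes tested were lower and 37% higher in both pairs. EPCAM, the adhesion molecule of epithelia, read 8.94 and 8.95 with forskolin and 9.60 and 10.28 in static culture, with pair differences of -0.66 and -1.33 (adjusted p = 0.11). CLDN4, a tight junction protein, differed by -1.08 ± 0.15 (adjusted p = 0.0722) and the keratin KRT18 by -1.28. Proximal tubule markers had a median of -0.09 over 25 members, with 10 lower and 8 higher in both pairs. CDH6, a cadherin of early proximal tubule, read 7.65 and 7.87 with forskolin and 9.82 and 10.24 in static culture, at -2.27 ± 0.26 (adjusted p = 0.0613). GPX3, the secreted peroxidase of proximal tubule, differed by -1.66 and PDZK1, an apical scaffold, by -1.91.

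Podocyte markers had a median of 0.07 over 19 members, with 8 higher and 7 lower in both pairs. NPHS1, the slit diaphragm protein nephrin, differed by 0.71 ± 0.11 (adjusted p = 0.0869 by limma). TCF21, also on the stromal list, went the other way, at -0.76 ± 0.18 (adjusted p = 0.135). Loop of Henle, distal tubule and collecting duct markers had a median of 0.01 over 22, and GATA3, a factor of the distal nephron and ureteric lineage, differed by 0.89 ± 0.10 (adjusted p = 0.06). The 14 nephron progenitor markers had a median of -0.04, with the Notch ligand JAG1 at -1.68 and CITED1, a progenitor factor, at 0.98. Markers of other tissues had medians near 0, which were 0.04 for 29 neuron markers, -0.02 for 23 of cartilage and bone, -0.06 for 7 of melanocytes and glia, and -0.03 for 10 of blood and macrophages. These lists were dim, and the offset compresses their differences. Neuron markers, for example, had median levels of 6.29 and 6.26 with forskolin and 6.25 and 6.19 in static culture. In the authors' value table the medians were, in the same order, 0.28, -0.11, -0.33 and -0.06. In these 7 lists 0 members were called by limma, against 0.764% called higher and 0.361% lower over all genes tested.

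**Figure D5:**
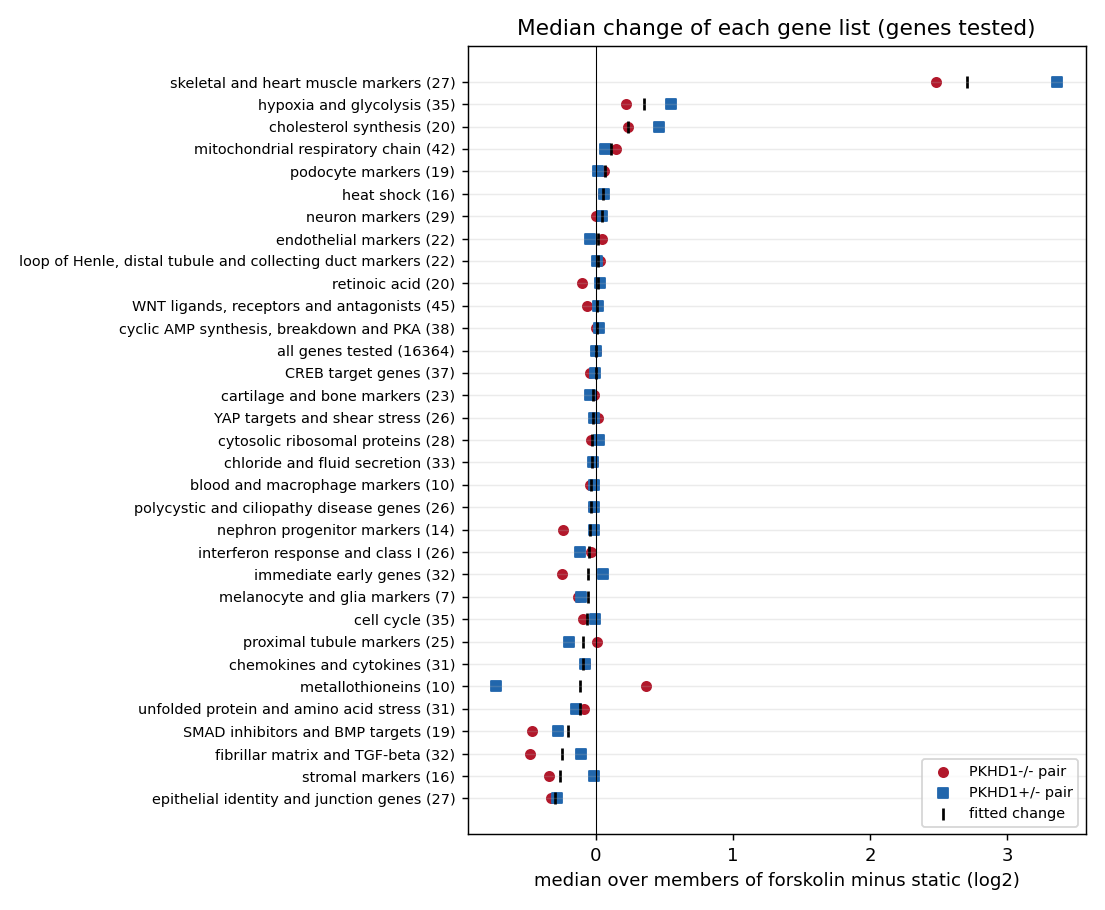
Median forskolin minus static difference (log2) of each gene list, with the PKHD1-/- pair as circles, the PKHD1+/- pair as squares and the fitted change as bars, and the number of members tested in parentheses. Muscle markers stand far to the right, epithelial, stromal and matrix lists lie left of 0, and metallothioneins separate the genotypes most.

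The responses of the 2 genotypes were single differences between 2 arrays and were not tested. The 4 genes with the most negative PKHD1-/- minus PKHD1+/- response were A2M, CBX1, EIF4A2 and RPL38. A2M, a protease inhibitor, read 6.10 in PKHD1-/- and 10.98 in PKHD1+/- with forskolin, against 12.06 and 11.69 in static culture. CBX1, a heterochromatin protein, read 5.95 and 9.97 with forskolin and 10.48 and 10.11 in static culture. EIF4A2, a translation factor, read 6.34 and 10.32 with forskolin and 10.64 and 11.09 in static culture, and RPL38, a ribosomal protein, 9.25 and 12.97 against 13.31 and 13.54. In all 4 the PKHD1-/- forskolin array alone stood apart. That array lay more than 2 log2 units below all 5 others for 6 genes, and the PKHD1+/- forskolin array for 0. At the other end stood SARAF, a regulator of calcium entry, whose PKHD1+/- forskolin level was low, at 8.72 and 6.75 with forskolin and 9.49 and 9.78 in static culture. FBL, the nucleolar fibrillarin, read 11.74 and 10.25 with forskolin and 9.24 and 9.91 in static culture. MT1P3 and PIGP also stood at that end.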

How the data were processed

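Amplified RNA of day 35 organoids was labelled with Cy5 and read on single-colour 3D-Gene Human 25k arrays, per the labels. The deposited scanner files give each spot's median intensity before background subtraction, per the file headers. The authors' value table gives an intensity above the blank spots, with the median of each array set to 25. Spot medians were corrected by normexp (offset 50), converted to log2 and quantile normalized over the 6 arrays (limma 3.58.1, R 4.3.3). Of 24460 probes, 20236 carry 1 gene symbol, 4224 carry none, and 205 marked as not good were left out. Probes were averaged to 17446 genes, and 16364 above background (blank mean plus 2 SD) on at least 2 arrays were tested. Limma's moderated test (culture plus genotype, 6 arrays, 2 residual degrees of freedom, 2-sided, Benjamini-Hochberg over all genes) gave the SE and adjusted p. The number of arrays limits the precision. Pairing comes from the genotype of the clones.

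The rule named PKHD1, the 12 widest called changes each way, called or widest members of the 32 lists, and the extremes of the genotype difference. Further list members are named as context, after their values were seen. Members, lists and tests were chosen with earlier results of these data known. The fit was also run on simulated data in which every gene had the same spread and no scan session effect was added. That run cannot check calls where genes differ in spread or arrays differ by session. Promoters came from RefSeq.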

Additional observations from a re-analysis of the deposited data

Results flagged for a closer look

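In 10 results the 2 genotypes moved in opposite directions, each a difference between single arrays, and the difference was not tested in any of them. It is given as the PKHD1-/- response minus the PKHD1+/- response on the log2 scale. MT1P3, a metallothionein pseudogene, stood at 2.39: it read 10.30 and 10.37 with forskolin and 9.29 and 11.76 in static culture, so the static arrays differ more than the forskolin arrays. The metallothionein list, whose median differed by 1.09, had a mean level of 8.89 and 8.82 with forskolin and 8.30 and 9.32 in static culture. PIGP, a subunit of the enzyme that starts membrane anchors, stood at 2.12, and read 8.39 and 6.27 with forskolin and 7.80 and 7.80 in static culture. The medians of the other lists differed less: -0.303 for immediate early genes, 0.200 for proximal tubule markers, -0.133 for retinoic acid genes, 0.0863 for endothelial markers, -0.0769 for WNT genes, -0.0592 for ribosomal protein genes and 0.0267 for YAP and shear stress genes.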

How the results depend on the processing

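The number of genes called depended strongly on the settings. Scaling to the 75th percentile gave 5894 higher and 862 lower calls, or 87.2% higher against 67.9% as reported, and 83.6% of genes with 1 direction in both genotypes. The authors' value table gave 299 higher and 358 lower (45.5% higher) and kept 135 of the 177 reported calls it could test. Without a filter on dim genes there were 54 higher and 22 lower, and with the brightest probe of each gene 33 lower. The 4 arrays alone, with 1 residual degree of freedom, gave 0 higher and 0 lower by limma at a lowest adjusted p of 0.110, with 3976 genes at an unadjusted p under 0.05. Limma's trend and robust settings gave 600 higher and 592 lower. Run singly, which was chosen after seeing the data, trend gave 598 and 581, and robust 35 and 5. Without the genotype pairing, the fit with no replicate block gave 624 higher and 469 lower. Leaving out each array in turn gave 0 calls each time, with the lone array assumed to vary like the others. The cause of these shifts was not tested, beyond the fewer residual degrees of freedom where arrays were left out. No result reversed among those called, all of which had the same direction in both pairs to begin with. The muscle median stayed between 2.62 and 4.64 and the epithelial median between -0.58 and -0.27 over 15 alternatives. Some lists with medians near 0 took both signs, among them CREB targets (-0.09 to 0.34) and proximal tubule markers (-0.24 to 0.28). The share of probes above background was 88.9% and 83.5% on the forskolin arrays, against 88.7% and 86.9% on the static arrays.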

Other observations

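Several called genes outside the lists encode hormones, receptors and their modifiers, and were picked out after their values were seen. NPPC, the C-type natriuretic peptide, read 7.81 and 7.74 with forskolin and 5.79 and 5.80 in static culture, where 1 of 2 arrays was above background, and rose by 1.98 ± 0.06 (limma, n = 2 pairs, adjusted p = 0.0272). RAMP1, a partner of the calcitonin receptor-like receptor that signals through cyclic AMP, read 9.02 and 9.02 with forskolin and 6.43 and 6.13 in static culture, and rose by 2.74 ± 0.10. The bradykinin receptor BDKRB2 rose by 1.79 ± 0.06, the adrenergic receptor ADRA2C by 1.26 ± 0.08, and DIO3, which inactivates thyroid hormone, by 1.70 ± 0.12. For each of these 5 genes both forskolin arrays lay at least 1 above all 4 matrix arrays. PRL, the hormone prolactin, rose by 1.12 ± 0.07 and AMH, the anti-Müllerian hormone, by 0.93 ± 0.08.

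RGMA and HJV, BMP coreceptors of the same family, rose by 2.26 ± 0.07 and 1.37 ± 0.11. RGMA read 9.49 and 9.14 with forskolin and 7.15 and 6.97 in static culture. CLDN11, a tight junction protein, fell by 1.28 ± 0.07, reading 7.33 and 7.88 with forskolin and 8.60 and 9.16 in static culture, but under flow it read 7.29 and 7.69, near the forskolin level.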
